A study of Mus musculus with 6 samples.

Results

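The 10 genes described here encode the core of the Hedgehog pathway: the ligand gene Shh, the ligand inhibitor gene Hhip, the receptor gene Ptch1, the co-receptor genes Boc and Cdon, the transducer gene Smo, the inhibitor gene Sufu and the transcription factor genes Gli1, Gli2 and Gli3. They were taken by a fixed list of array identifiers and by no rule on their values. The list was, however, set with earlier results of these data known. All 10 had a row among the 17144 genes of the table. RNA was measured on 6 Affymetrix mouse arrays, 3 of embryonic stem cells (ESCs) and 3 of neural precursor cells (NPCs), with 1 array per biological replicate. The ESCs were the wild type V6.5 line, derived from a blastocyst of 129SvJae/C57B6 F1 background and grown with serum and LIF. The NPCs, also wild type, were made from this line by differentiation in culture and kept in N3 medium with bFGF and EGF, growth factors that hold neural precursors in division. Both cell types therefore come from 1 line, and no Hedgehog ligand or inhibitor is named among the additions to either medium. All expression values below are robust multi-array average (RMA) values on the log2 scale, so that a difference of 1 is a 2-fold change, and they compare a gene between arrays but not a gene with another gene.

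Hedgehog signaling is the route by which the notochord and floor plate pattern the ventral neural tube, and it is also known for its role in the division of neural precursors. In the absence of ligand, PTCH1 keeps SMO inactive, and GLI2 and GLI3 are held by SUFU and processed in part into repressors. When ligand binds PTCH1 together with the co-receptors BOC, CDON or GAS1, SMO moves into the primary cilium and full-length GLI proteins act as activators. Gli1, Ptch1 and Hhip are themselves textbook targets of this activation.

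The GLI factor genes differed in direction between ESCs and NPCs. Gli1 and Gli2 fell in NPCs, by 6.91-fold and 8.67-fold, while Gli3 was 1.49-fold higher and just under the 1.5-fold threshold. The genes Hhip, Smo, Boc and Cdon rose, Hhip by 3.45-fold, Smo by 3.42-fold, Boc by 2.47-fold and Cdon by 2.07-fold. Shh, Ptch1 and Sufu did not pass the test. The mean was 4.28 for Gli1 in NPCs, and 3.79 for Hhip and 4.53 for Boc in ESCs. These means lie below the array medians of 5.59 to 5.76. No detection limit was set, so the fold sizes of Gli1, Hhip and Boc are uncertain. Each gene was tested in a limma fit over all 17144 genes, and it was called when the Benjamini-Hochberg adjusted p was under 0.05 and the means differed by more than 1.5-fold. By this rule 4 of the 10 genes were called higher in NPCs, against 15.4% of all genes, and 2 were called lower, against 18.7% of all genes. The adjusted p alone was under 0.05 at 7 of the 10, against 49% of all genes, and the arrays of the cell types did not overlap at 8 of the 10, against 58.7%. The median size of the difference was 1.18 over the 10 genes and 0.33 over all genes, and the median signed difference was 0.44 and -0.04.

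**Figure D1:**
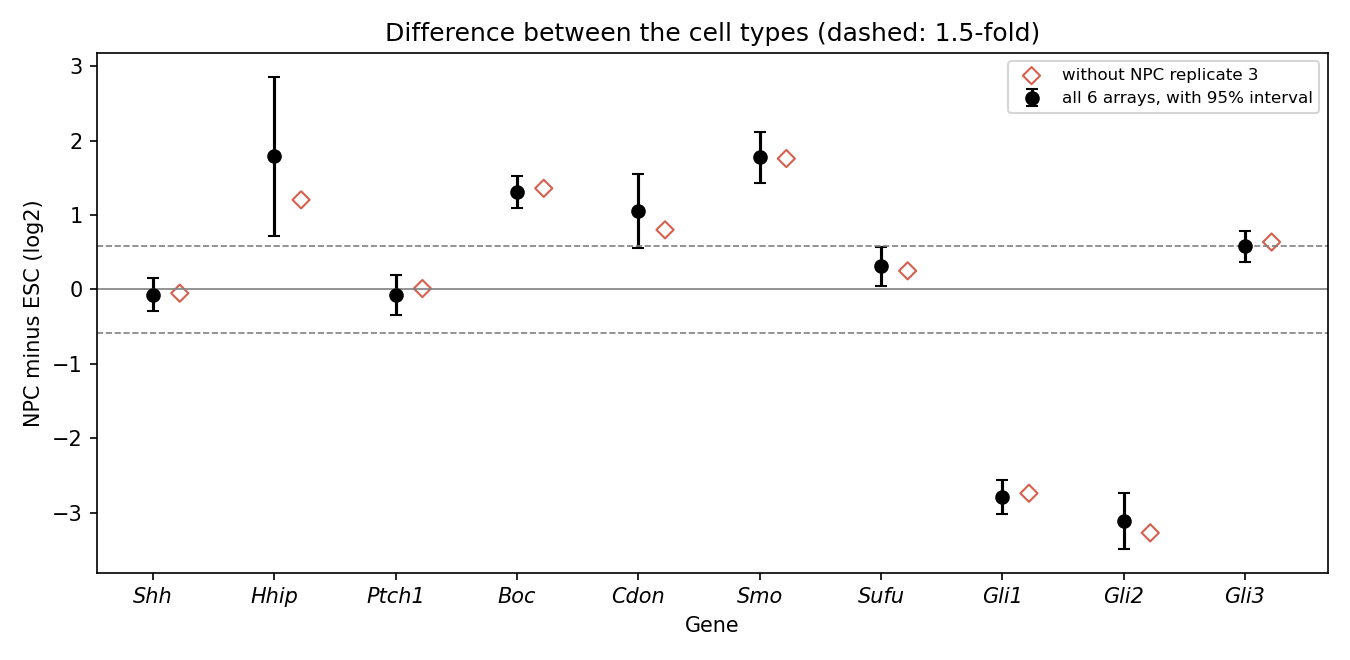
The difference between NPCs and ESCs (vertical axis, log2) for each gene, with black points for the limma estimate from all 6 arrays, bars for its 95% confidence interval, open diamonds for the estimate without NPC replicate 3, and dashed lines at 1.5-fold. Gli1 and Gli2 lie near -3, Hhip, Boc, Cdon and Smo lie above the upper dashed line, and Gli3 lies on it.

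Arrays of ESCs correlated with each other across genes at r = 0.996 to 0.998 and NPC replicates 1 and 2 at r = 0.997, but NPC replicate 3 correlated with these only at r = 0.978 to 0.979. At 686 genes, 4.0% of all, NPC replicate 3 lay more than 1 from the mean of NPC replicates 1 and 2. Results that rest on it are therefore also given without it. Of the 38 genes of the cell type marker lists, 10 could be named on the arrays. Nearly all were named through the upper part of a list of genes sorted by their rise in NPCs. That source fixes their direction, so the higher NPC values of the markers below do not check the cell types. The ESC marker Pou5f1 stood at 12.42 to 12.46 in ESCs and 3.61 to 3.83 in NPCs, and the NPC markers Nes, Fabp7, Vim and Slc1a3 were each higher on every NPC array than on any ESC array. Of the other cell types, 1 of 6 neuron, 1 of 4 astrocyte and 2 of 6 oligodendrocyte lineage markers could be named. Dcx, a neuronal gene, read 3.76 to 5.06 in NPCs against 3.33 to 3.68 in ESCs, S100b, an astrocyte gene, read 6.13 to 7.02 against 3.95 to 4.0, and Olig1, of the oligodendrocyte lineage, read 12.99 to 13.22 against 9.17 to 9.26. No fibroblast marker could be named. The part of other cell types in the differences below was not tested, and in bulk RNA fewer cells of a type and less RNA per cell cannot be told apart.

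**Figure D2:**
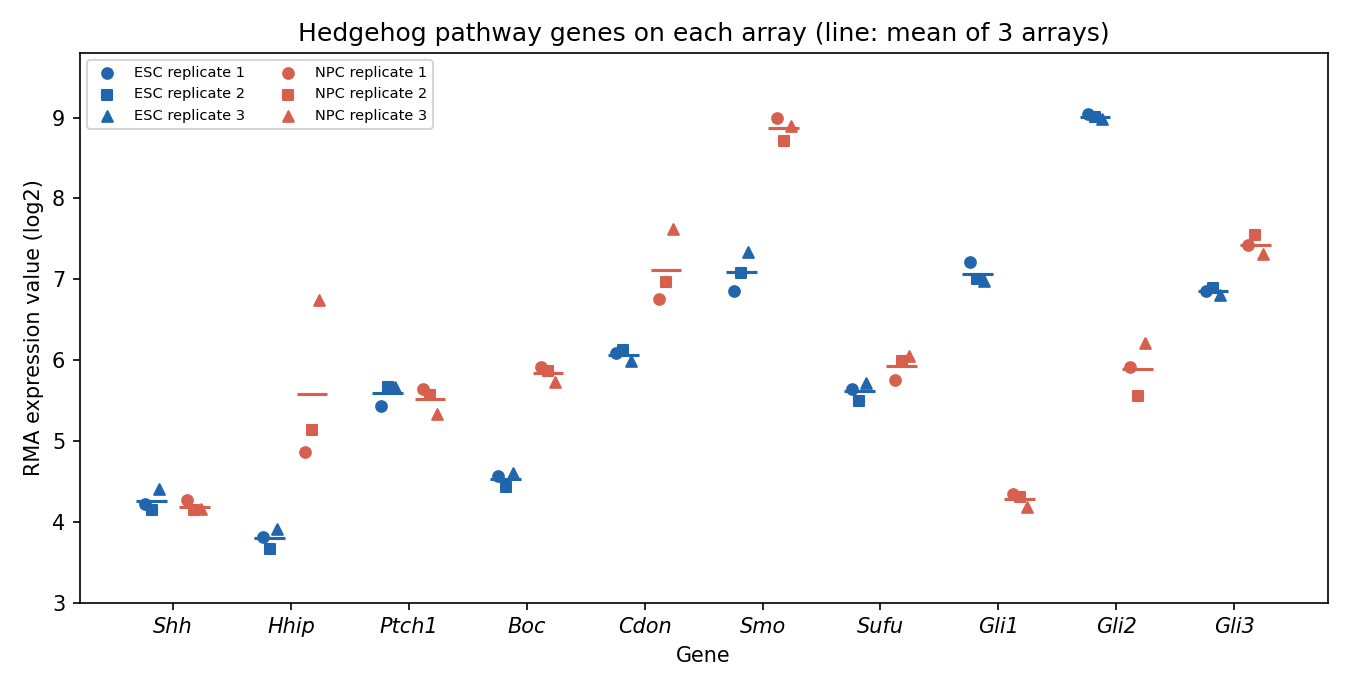
RMA expression values (vertical axis, log2) of the 10 genes on the 3 ESC arrays (blue) and the 3 NPC arrays (red), with the replicate shown by the symbol and the mean of each cell type by a line. Gli1 and Gli2 fall from about 7 and 9 to about 4 and 6, and the NPC triangle, replicate 3, stands apart at Hhip and Cdon.

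Promoter windows are shown for Gli2, which fell, for Gli3, which did not, and for Smo and Hhip, which rose, because these hold the core of the GLI recognition sequence, in capitals. They run from 250 bases before to 50 bases after a transcription start, 5′ to 3′ on the strand of the gene, and come from RefSeq (GRCm38.p6), matched by symbol for 7 of the 10 genes. The Gli2 window is chr1:119053570-119053869 (minus strand), that of Gli3 is chr13:15463473-15463772 (plus strand), that of Smo is chr6:29735247-29735546 (plus strand) and that of Hhip is chr8:80057959-80058258 (minus strand).
Gli2: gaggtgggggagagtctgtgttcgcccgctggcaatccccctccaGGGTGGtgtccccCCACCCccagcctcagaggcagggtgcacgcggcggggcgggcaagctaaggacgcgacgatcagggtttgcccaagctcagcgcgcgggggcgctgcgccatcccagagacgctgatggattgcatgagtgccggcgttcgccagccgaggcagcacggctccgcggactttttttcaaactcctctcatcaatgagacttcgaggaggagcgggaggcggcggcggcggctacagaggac
Gli3: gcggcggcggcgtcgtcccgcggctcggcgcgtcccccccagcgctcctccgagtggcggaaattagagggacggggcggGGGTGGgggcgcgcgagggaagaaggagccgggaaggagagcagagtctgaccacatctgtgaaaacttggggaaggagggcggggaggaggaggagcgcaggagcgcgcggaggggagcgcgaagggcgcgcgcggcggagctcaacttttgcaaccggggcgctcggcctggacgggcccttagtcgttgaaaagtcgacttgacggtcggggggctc
Smo: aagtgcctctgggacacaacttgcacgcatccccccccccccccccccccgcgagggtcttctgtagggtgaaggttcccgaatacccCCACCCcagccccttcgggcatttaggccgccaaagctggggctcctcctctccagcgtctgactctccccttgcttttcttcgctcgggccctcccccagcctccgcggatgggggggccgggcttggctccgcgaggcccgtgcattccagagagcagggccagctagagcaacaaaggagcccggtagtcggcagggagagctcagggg
Hhip: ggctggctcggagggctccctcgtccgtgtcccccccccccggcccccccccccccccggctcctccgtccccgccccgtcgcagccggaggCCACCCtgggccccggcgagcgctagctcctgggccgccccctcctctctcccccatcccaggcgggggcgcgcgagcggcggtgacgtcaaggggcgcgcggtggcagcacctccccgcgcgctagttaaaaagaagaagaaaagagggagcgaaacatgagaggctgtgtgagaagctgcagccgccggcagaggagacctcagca

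The GLI consensus TGGGTGGTC, searched on both strands, was in none of the 7 windows and in 0.253% of the 32851 promoter windows of the RefSeq table. Its inner part GGGTGG, which every consensus match also holds, was in 4 of the 7 windows and in 31.5% of all. In Gli2 it occurred on the strand of the gene at positions -205 to -200 and on the other strand, as CCACCC, at -192 to -187, counted from the start. Single matches lay at -170 to -165 in Gli3, at -162 to -157 in Smo and at -158 to -153 in Hhip. These windows are rich in G and C, at 67.3% to 73.7% in these 4 genes against a median of 52.7% over all promoter windows. The SOX sequence CTTTGTT, on either strand, was in the Smo window alone among the 7, at 12 to 18 after the start, and in 5.85% of all. The windows of Ptch1, Sufu and Cdon held none of these letters. A match is a run of letters and no evidence of binding, and the arrays do not say which start was used.

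The ligand gene Shh (ENSMUSG00000002633_at) gave nearly the same value on every array. It read 4.21, 4.15 and 4.41 in ESC replicates 1 to 3 and 4.27, 4.14 and 4.15 in NPC replicates 1 to 3. The NPC values lay inside the range of the ESC values but for one just below it. The mean was 4.26 ± 0.13 (SD, n = 3 arrays) in ESCs and 4.19 ± 0.07 in NPCs, a difference of -0.07 (95% interval -0.30 to 0.16, adjusted p = 0.607 from limma). Detection calls were not used here, so these values do not set whether Shh RNA was present in either cell type.

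Hhip (ENSMUSG00000064325_at), which encodes a membrane protein that binds and sequesters Hedgehog ligands, rose in NPCs and varied more among the NPC arrays than any other of the 10 genes. It read 3.81, 3.67 and 3.91 in ESCs and 4.86, 5.14 and 6.75 in NPCs. The lowest NPC array was 0.95 above the highest ESC array, and NPC replicate 3 was 1.75 above the mean of NPC replicates 1 and 2. Only 1.04% of all genes had replicate 3 further from the others. The mean went from 3.79 ± 0.12 to 5.58 ± 1.02 (SD, n = 3 arrays), a difference of 1.79 (standard error 0.45, adjusted p = 0.014 from limma). Without NPC replicate 3 the difference was 1.20, with an adjusted p of 3.39e-05 from limma. Without ESC replicate 2 the difference was 1.72 and was not called, with an adjusted p of 0.0523 from limma. For any single gene, permuting 3 arrays against 3 in an exact test gives 0.1 as its smallest p.

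Ptch1 (ENSMUSG00000021466_at) encodes the ligand receptor, which represses SMO. Its values were 5.43, 5.67 and 5.67 in ESCs and 5.64, 5.56 and 5.34 in NPCs, and the ranges overlapped. The means of 5.59 ± 0.14 and 5.51 ± 0.16 (SD, n = 3 arrays) differed by -0.08 (95% interval -0.35 to 0.19, adjusted p = 0.634 from limma). The interval leaves room for a fall of up to 0.35 or a rise of up to 0.19, and it does not reach the 1.5-fold threshold of 0.58 on either side. Both Gli1 and Hhip, which like Ptch1 are known as targets of the activated pathway, differed between the cell types by more than this, and in opposite directions.

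The co-receptor genes rose together. Boc (ENSMUSG00000022687_at) encodes a cell surface protein of the immunoglobulin family that presents ligand to PTCH1. It read 4.56, 4.43 and 4.61 in ESCs and 5.92, 5.87 and 5.73 in NPCs, with every NPC array above every ESC array by at least 1.12. The difference of means was 1.30 (standard error 0.09, adjusted p = 2.35e-05 from limma), and Boc was steady among the NPC arrays, with an SD of 0.10. Cdon (ENSMUSG00000038119_at), the close relative of Boc, read 6.09, 6.12 and 5.99 in ESCs and 6.76, 6.97 and 7.62 in NPCs. The groups again did not overlap, and NPC replicate 3 was 0.75 above the mean of NPC replicates 1 and 2. The difference of 1.05 (standard error 0.21, adjusted p = 0.00463 from limma) was 0.80 without that array, still called.

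A further co-receptor, Gas1, a membrane-anchored protein that can act beside BOC and CDON, could be named on the arrays and rose more than either. It read 5.96, 6.15 and 6.38 in ESCs and 10.74, 10.89 and 10.33 in NPCs. The means differed by 4.49 (standard error 0.17, adjusted p = 1.33e-06 from limma). Thus Boc, Cdon and Gas1 were each higher on all NPC arrays. The name Gas1, however, came from the upper part of a list of genes sorted by their rise in NPCs. The direction of Gas1 was therefore fixed by the choice.

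Smo (ENSMUSG00000001761_at) encodes the receptor-like transducer that carries the signal into the cell. It read 6.85, 7.08 and 7.34 in ESCs and 9.0, 8.71 and 8.90 in NPCs. The cell types were separated by a gap of 1.36, and NPC replicate 3 was within 0.05 of the mean of NPC replicates 1 and 2. The means were 7.09 ± 0.25 and 8.87 ± 0.15 (SD, n = 3 arrays), which differ by 1.77 (standard error 0.14, adjusted p = 4.93e-05 from limma). Smo had the largest spread of the 10 genes among ESC arrays, and 5.63% of all genes had a larger one. Its rise ranked 739th among all genes and that of Hhip 725th.

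Sufu (ENSMUSG00000025231_at), which encodes the cytoplasmic protein that binds GLI factors and holds them inactive, was slightly higher in NPCs but did not pass the test. It read 5.65, 5.49 and 5.71 in ESCs and 5.75, 5.98 and 6.05 in NPCs. The cell types did not overlap, but the gap between the highest ESC array and the lowest NPC array was only 0.04. The difference of 0.31 (95% interval 0.05 to 0.57, adjusted p = 0.0518 from limma) stayed below the 1.5-fold threshold at both ends of its interval. Over the alternative ways of processing its adjusted p ran from 0.0108 to 0.164.

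Gli1 (ENSMUSG00000025407_at), an activator that lacks the repressor form of its relatives, was lower in NPCs by a margin far outside the spread of the arrays. It read 7.21, 7.0 and 6.98 in ESCs and 4.35, 4.31 and 4.18 in NPCs. Every NPC array was at least 2.63 below every ESC array, and the NPC arrays were close to each other. The means of 7.07 ± 0.13 and 4.28 ± 0.09 (SD, n = 3 arrays) differed by -2.79 (standard error 0.10, adjusted p = 8.93e-07 from limma). Among all genes this was the 423rd largest fall.

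Gli2 (ENSMUSG00000048402_at), known as the main activator among the GLI factors, fell the most of the 10 genes. It read 9.04, 9.01 and 8.98 in ESCs and 5.91, 5.56 and 6.21 in NPCs. The ESC arrays had an SD of 0.03, and 92.3% of all genes had a larger SD there, whereas the NPC arrays spread with an SD of 0.32. Even so, the groups were separated by 2.78. The difference of -3.12 (standard error 0.16, adjusted p = 5.22e-06 from limma) ranked 338th among all falls, and without NPC replicate 3, the highest NPC array, it was -3.27.

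Gli3 (ENSMUSG00000021318_at), which acts largely as a repressor in the absence of ligand, stood higher in NPCs. It read 6.85, 6.89 and 6.80 in ESCs and 7.43, 7.54 and 7.31 in NPCs, so that every NPC array was above every ESC array, with a gap of 0.42. The means of 6.85 ± 0.05 and 7.43 ± 0.12 (SD, n = 3 arrays) differed by 0.58 (standard error 0.09, adjusted p = 0.00127 from limma). The adjusted p passed, but the fold of 1.49 did not, and Gli3 was not called. It was called without NPC replicate 3, at 0.64, without ESC replicate 2, at 0.60, and after either rescaling of the arrays.

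The change of each GLI factor was also set against that of the others, by taking the difference of 2 genes within each array. With its sign, the change from ESCs to NPCs was 3.37 higher for Gli3 than for Gli1 and 3.69 higher than for Gli2. In size Gli3 changed the least of the 3, by 0.58 against -2.79 for Gli1 and -3.12 for Gli2. For both pairs the exact two-sided permutation p was 0.1, the smallest that 3 arrays against 3 allow, and 0.15 after adjustment over the 3 pairs. Gli1 and Gli2 differed in their change by 0.33, with an exact two-sided permutation p of 0.4 (adjusted 0.4), where the SD of this difference among NPC arrays was 0.39. With 3 arrays of each cell type this test could not pass 0.05 for any pair, and it compares the changes of different probe sets, not their levels.

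**Figure D3:**
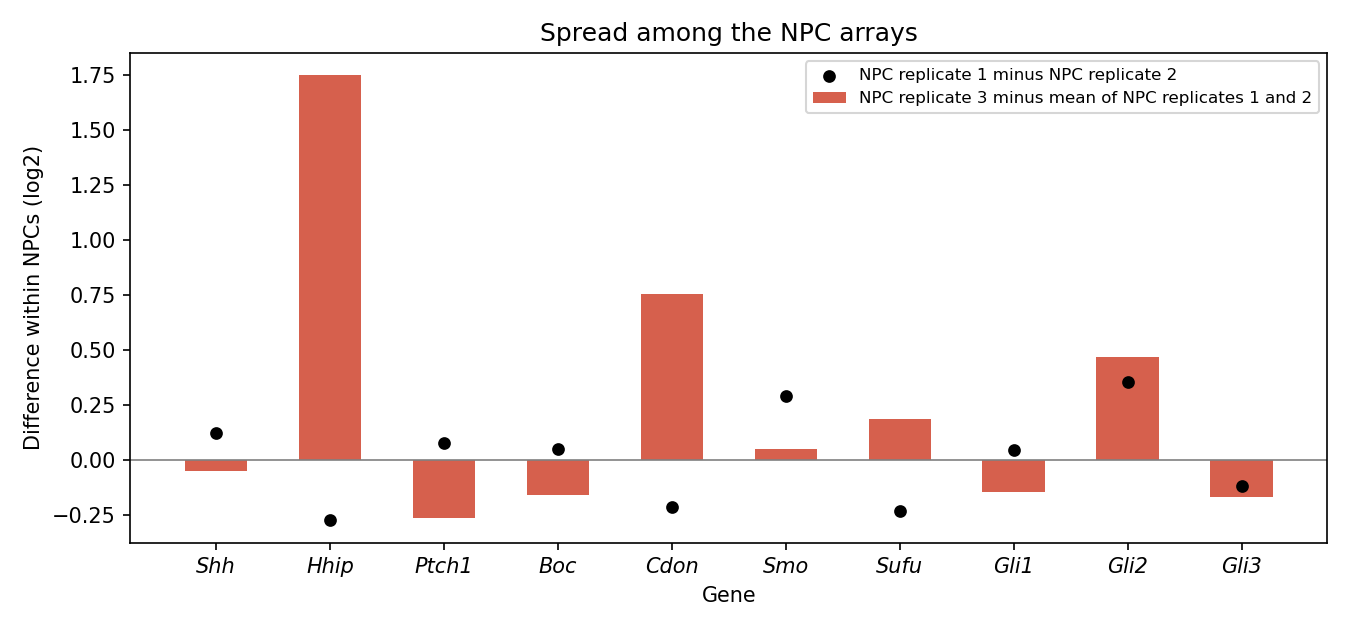
Spread among the NPC arrays (vertical axis, log2) for each gene, with bars for NPC replicate 3 minus the mean of NPC replicates 1 and 2 and black points for NPC replicate 1 minus NPC replicate 2. The bar reaches 1.75 at Hhip and 0.75 at Cdon, and stays below 0.5 in size at the other 8 genes.

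NPC replicate 3 stood apart at some of these genes and not at others. It stood above the mean of NPC replicates 1 and 2 by 1.75 at Hhip, 0.75 at Cdon, 0.47 at Gli2, 0.19 at Sufu and 0.05 at Smo. At the other 5 genes it was lower, by between 0.05 at Shh and 0.26 at Ptch1. Hhip was the single gene of the 10 past 1, and 7.03% of all genes had a larger departure than Cdon. On the same array Nkx2-2, a ventral neural tube factor, read 6.68 against 9.38 and 9.24 in NPC replicates 1 and 2. Olig2, also a ventral patterning factor, went the other way, at 11.67 against 11.07 and 10.96. Dcx read 3.76 against 4.86 and 5.06, and S100b read 7.02 against 6.32 and 6.13. Among the NPC markers, Slc1a3, a radial glia gene, read 9.8 against 8.66 and 8.72, and Fabp7 13.53 against 12.87 and 12.76. Nes, at 7.64 against 7.84 and 7.57, and Vim, at 12.37 against 12.57 and 12.53, were not raised. Olig1 read 12.99 against 13.21 and 13.22. Whether these markers have a part in the departures of Hhip and Cdon was not tested. The NPC arrays had the larger SD at 7 of the 10 genes, against 65.4% of all genes. Directions of the 10 genes were the same without this array, except at Ptch1, where -0.08 became 0.01.

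**Figure D4:**
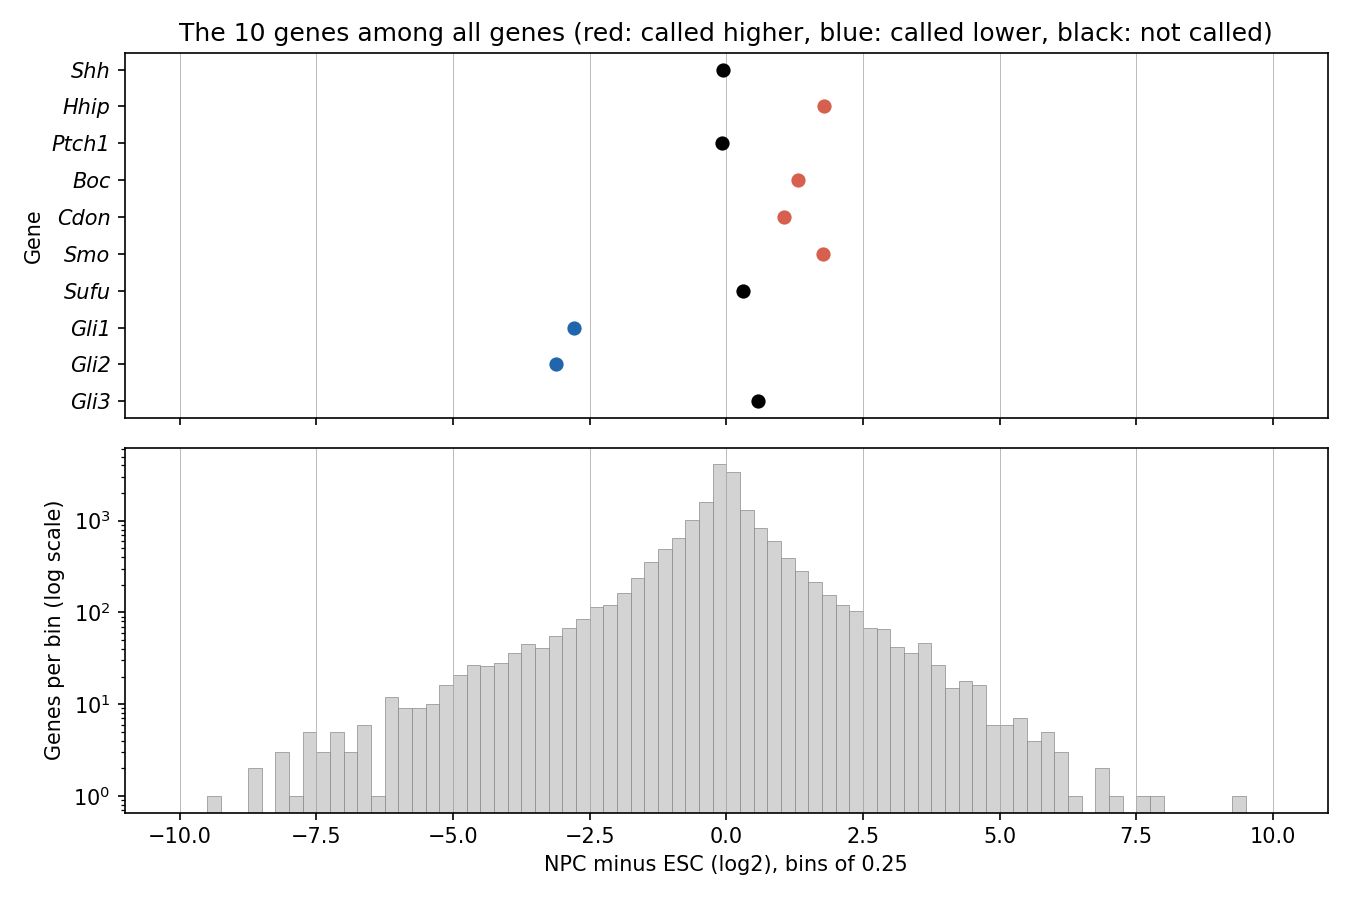
The difference between NPCs and ESCs (horizontal axis, log2) for the 10 genes (upper panel, colored by the call) above a histogram of the same difference over all 17144 genes (lower panel, number of genes per bin of 0.25 on a log scale). Gli1 and Gli2 lie in the left tail, the 4 genes called higher lie on the right shoulder, and Shh and Ptch1 lie in the central peak.

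The 10 genes spread over much of the distribution of all genes. Of all genes tested, 2638 were called higher in NPCs and 3213 lower, a split that turned to 3302 and 2642 when each array was centred on its median. That centring moved the median difference over all genes from -0.04 to 0.12, and quantile normalization moved it to 0.03. Gli1, Gli2, Smo, Hhip, Boc and Cdon were called in the same direction under both scalings, whereas Shh and Ptch1 turned from slightly negative to slightly positive. Relative to the shift in the median, no scaling brought Shh or Ptch1 near the threshold.

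Of 50 further genes listed for the pathway, 14 could be named on the arrays, through a list of genes sorted by their rise in NPCs, of which only the upper part is used here. All 14 were called higher in NPCs, which this source fixes in advance, and the other 36 were not analyzed here. The 14 named genes include neither of the 2 further ligand genes and none of the 11 regulators at the cilium. Among known or reported GLI targets, the cyclin genes Ccnd1 and Ccnd2 were higher in NPCs by 3.20 and 4.73, Bcl2, an inhibitor of cell death, by 1.72, and the ventral patterning factors Olig2 and Nkx2-2 by 3.81 and 5.33. Nkx2-2 read 3.16, 3.00 and 3.16 in ESCs and 9.38, 9.24 and 6.68 in NPCs, so its large difference (standard error 0.67) has a wide error. These genes have other known inputs, and they were named only because they rose.

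Genes whose products act on GLI proteins were also found in this list. Prkaca and Prkar1a, the catalytic and a regulatory subunit of protein kinase A, which marks GLI2 and GLI3 for processing, were higher in NPCs by 1.24 and 1.29. The GLI kinase gene Gsk3b was higher by 1.5 and the ubiquitin ligase adaptor gene Spop, whose product targets full-length GLI proteins, by 1.25. The cilium motor genes Kif3a and Dync2h1 were higher by 1.11 and 0.90. Of the related zinc finger factors, Zic1 was higher by 5.48 and Glis3 by 1.71. The adjusted p of these 8 genes in limma ran from 2.89e-08 at Zic1 to 0.0026 at Spop. These genes too were named only because they rose on these same arrays. Their direction and small p-values were thus fixed in advance and are no test of the pathway.

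The profiles most like those of the called genes were sought over the 6 arrays, as the root mean square difference of log2 values after subtraction of each gene's ESC mean. For Smo the nearest was Sox5, at 0.07. For Hhip they were Rorb, at 0.14, and Slc7a11, at 0.15, and only 8 genes lay within 0.25 of its profile. The same count was 55 for Gli2, 111 for Gli1, 135 for Smo, 268 for Cdon and 489 for Boc. The nearest to Cdon were Ncam2, at 0.04, and Msi2, at 0.08, and the nearest to Boc were Alg14, at 0.04, and Akr1c13, at 0.05. For Gli1 and Gli2 the nearest rows, ENSMUSG00000022101_at at 0.07 and ENSMUSG00000030060_at at 0.11, had no name at hand. Nearly all names at hand belong to genes that rose, so neighbors of a gene that fell could hardly be named. With 6 arrays in only 2 groups many genes share such a profile, and the likeness says nothing of shared control.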

How the data were processed

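RNA from 3 ESC and 3 NPC replicates was hybridized to Affymetrix mouse arrays, 1 array per replicate. The authors deposited log2 values made by RMA, with background correction, quantile normalization and 1 value per Ensembl gene through the BrainCDF annotation. Its version and genome build were not given in the sources used here. Of 17208 rows, 64 control probe sets were left out, and no filter was applied. Groups and replicate numbers came from the sample labels. NPCs were compared with ESCs in limma 3.58.1 (R 4.3.3, lmFit and eBayes, 6 arrays, no covariates, Benjamini-Hochberg adjustment over all genes), with the thresholds of the study's methods. Their own moderated Welch test was rebuilt as an alternative, beside a mean-variance trend, a replicate block, quantile normalization, median centring, filters on low genes (lowest 25th percentile or lower than the median), other fold thresholds, and each array left out. The scripts were tested on simulated data. Arrays carry no read depth, and their number limits the precision. The replicates are described as biological, without naming separate derivations, so p-values measure the spread between these arrays.

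The 10 members were taken by identifier with the names of their list. The names of Smo, Hhip, Boc and Cdon were also found by equality of all 6 values, within 0.0001, with named rows of tables published with the study, which named 1998 genes in all, nearly all of them genes that rose. No other member is in the rows read there. The members and lists were chosen with earlier results of these data known. Named genes are the 10 members, the listed pathway and marker genes as far as a name was found, and the 2 nearest profiles of each called member, of which some are not reported here. Columns of the authors' own comparisons were not used. Figures were made with Python 3.11.15 and matplotlib 3.10.9.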

Additional observations from a re-analysis of the deposited data

How the results depend on the processing

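Of the 10 genes, Gli1, Gli2, Smo, Boc and Cdon were called in the same direction under every alternative that tested them, and over all alternatives 133 values of the 10 genes kept direction and call, 6 changed sign, 5 gained a call and 1 lost it. The sign turned at Shh under quantile normalization (0.037), median centring (0.085) and without ESC replicate 3 (0.0056), and at Ptch1 under quantile normalization (0.078), median centring (0.077) and without NPC replicate 3 (0.011), with no call in either direction. Gli3 became called under quantile normalization (0.64), median centring (0.73) and with no fold threshold (0.58). Leaving out single arrays, the difference ran from -0.12 to 0.0056 for Shh, -0.16 to 0.011 for Ptch1, 0.52 to 0.64 for Gli3 and 1.20 to 2.15 for Hhip, whose call was lost without ESC replicate 2. The filter at the median removed Shh, Ptch1, Gli1, Hhip and Boc, and left 2 genes called higher and 1 lower. With a fold over 2, 1615 of all genes were called higher and 1977 lower, and the same 6 of the 10 genes were called. With the replicate block, 4 of the 10 genes were called higher and 2 lower, and 2649 and 3218 of all genes, and it changed no call of the 10 genes. Deviations of arrays with the same replicate number correlated at 0.03, 0.01 and -0.01, so no pairing was seen across genes. The labels do not say whether such arrays share more than a number. Signal over background was not used here, so low values have no detection limit here.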
